A study of Mus musculus with 11 samples.

Results

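The 9 genes described here encode RNA-binding proteins that set how long cytokine transcripts last: tristetraprolin (Zfp36) and its relatives Zfp36l1 and Zfp36l2, the regnases Zc3h12a, Zc3h12c and Zc3h12d, the roquins Rc3h1 and Rc3h2, and HuR (Elavl1). They were chosen by name for their membership of these families, with earlier results of these data known. All 9 were found among the 27179 genes of the count table and passed the filter on low counts that left 15028 genes to test. The study asked how the neuropeptide adrenomedullin 2 (ADM2), a relative of CGRP, acts on group 2 innate lymphoid cells (ILC2s), the lymphocytes of mucosal tissue that make type 2 cytokines without an antigen receptor. ILC2s sorted from the large intestine of WT C57BL/6 mice were cultured for 3 h, and all groups, vehicle included, received IL-2 together with IL-7 (100 ng/ml of each). The 4 groups were vehicle (3 libraries), ADM2 at 0.4 µg/ml (3 libraries), IL-25 at 100 ng/ml (3 libraries) and IL-25 plus ADM2 at the same doses (2 libraries, replicates 2 and 3). The count table used here held no replicate 1 of the last group. The labels give no age, number or pooling of mice, so the p-values measure the spread between these libraries, which may be technical. Total counts were 25809256 to 35445351 per library.

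As background, an mRNA is usually destroyed after its poly(A) tail is removed by the CCR4-NOT deadenylase, and it is then decapped and degraded from the 5′ end or degraded from the 3′ end by the exosome. Tristetraprolin-family proteins bind AU-rich elements in 3′ UTRs and bring CCR4-NOT to them, roquins do the same at stem-loops, and Zc3h12a (Regnase-1) is an endonuclease that cuts transcripts at such stem-loops. HuR also binds AU-rich and U-rich sequences, and is best known for keeping its targets stable. Activity of these proteins is set largely by phosphorylation and, for Regnase-1, by cleavage and degradation, none of which mRNA counts measure. In bulk RNA, a change in level may come from more RNA per cell or from more cells that hold it, and these cannot be told apart here.

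The element that tristetraprolin-family proteins bind best is read most simply as the nonamer TTATTTATT, searched here on the transcript strand only, with overlapping matches counted. It was looked for in the 3′ UTR of the longest annotated coding transcript of each gene (GENCODE M21, GRCm38), and 957 of the 13428 tested genes with a 3′ UTR held it, which is 7.13%. The 9 regulators lie on 9 chromosomes, and 6 of them held the nonamer. The sites are shown because the family's own transcripts carry the letters that the family reads; 10 bases on either side are given, from the annotated transcript strand, and capitals mark the nonamer (the first of 8 in Elavl1).
Zfp36: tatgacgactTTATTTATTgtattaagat
Zfp36l1: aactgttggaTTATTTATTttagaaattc
Zfp36l2: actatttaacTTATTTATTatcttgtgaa
Rc3h1: actttactcaTTATTTATTgagatgagga
Rc3h2: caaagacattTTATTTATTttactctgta
Elavl1: gtcatgaaaaTTATTTATTtatttattta
The nonamer of Zfp36 lies at chr7:28376961-28376969 on the minus strand, that of Zfp36l1 at chr12:80108177-80108185 (minus) and that of Zfp36l2 at chr17:84184924-84184932 (minus). That of Rc3h1 lies at chr1:160970053-160970061 (plus), that of Rc3h2 at chr2:37373297-37373305 (minus), and the one shown for Elavl1 at chr8:4285798-4285806 (minus). Each of the 3 tristetraprolin-family transcripts had a single site, 588, 1403 and 820 bases after the stop codon for Zfp36, Zfp36l1 and Zfp36l2. The 8 sites of Elavl1 overlap or follow each other closely, 3793 to 3839 bases after its stop codon. No match was found in the 3′ UTRs of Zc3h12a (gene at chr4:125118414-125127881), Zc3h12c (chr9:52109569-52168730) and Zc3h12d (chr10:7832323-7870397). With the shortest annotated 3′ UTR of each gene, the sites of Zfp36l1, Rc3h1 and Elavl1 fall outside the window, and 4.92% of all genes held the nonamer. In the longest coding transcripts, the 3′ UTRs with a match had 774 (Zfp36), 1835 (Zfp36l1), 1822 (Zfp36l2), 7181 (Rc3h1), 5160 (Rc3h2) and 4218 bases (Elavl1). Those without had 856 (Zc3h12a), 3421 (Zc3h12c) and 2327 (Zc3h12d), and the median over all genes was 935. The part of length in the count of 6 was not tested.

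Among 30 transcripts known as targets of these proteins from T cells and macrophages, 12 held the nonamer. Csf2 and Cxcl2 held 4 each, Tnf 5, Cxcl1 and Dusp1 2 each, and Il2, Il13, Il22, Ptgs2, Rel, Fos and Notch1 1 each. The examples below are shown beside those of the regulators because their levels are given later; for Csf2, Tnf and Cxcl2 a site from within the cluster is printed.
Csf2: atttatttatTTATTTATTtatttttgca
Tnf: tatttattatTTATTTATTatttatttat
Cxcl2: atctatgtatTTATTTATTtattaattcc
Il13: cttcttgatcTTATTTATTatggttgtgt
The printed nonamers lie at chr11:54247331-54247339 (minus) for Csf2, chr17:35199688-35199696 (minus) for Tnf, chr5:90905346-90905354 (plus) for Cxcl2 and chr11:53631751-53631759 (minus) for Il13. Csf2 (GM-CSF) and Tnf are the classical AU-rich transcripts, with their sites in 1 overlapping run, while Il13 has a single site.

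Before the results, the libraries were examined. The sorted cells carried ILC2 transcripts at high levels, with Gata3, the lineage's transcription factor, at group means of 936 to 1341 normalised counts (CPM, scaled by TMM-adjusted library sizes). Summed CPM of 5 T cell markers was 7.37 to 12.6 in every library. The mast cell genes Mcpt2 and Mcpt4 were at 0 in all 11, while Cpa3 and Mcpt1 reached at most 0.344 and 0.821 CPM. Stromal Col1a1 and Col3a1 had group means of 29.0 to 66.6 CPM, and stromal Pdgfra of 2.87 to 3.86 CPM. Epcam, the main epithelial marker counted, had group means of 168 CPM in vehicle, 80.8 with ADM2, 147 with IL-25 and 62.5 with both, while Krt8, Krt20 and Cdh1 had group means of at most 9.23 CPM. The summed level of these 4 epithelial markers, most of it Epcam, was lower in both groups with ADM2 (65.8 to 89.1 CPM) than in both without it (143 to 188 CPM). Krt8 did not follow Epcam, with group means of 1.61 CPM in vehicle, 2.50 with ADM2, 5.32 with IL-25 and 9.23 with both. Cdh1 had 2.04, 1.79, 2.50 and 3.12 CPM in the same order, and Krt20 was near 0. The part of these differences in the results on ADM2 was not tested. Summed CPM of 6 macrophage and dendritic cell markers was 5.98 to 10.8 in vehicle, 13.1 to 13.4 with ADM2, 9.03 to 15.5 with IL-25 and 11.9 to 14.2 with both, so all ADM2 libraries lay above all vehicle libraries. The T cell sum was likewise higher in the libraries with both agents (11.3 to 12.6) than in those with IL-25 alone (7.37 to 9.45), and the part of either in the results was not tested. IL-25 replicates 1 and 3 lay at opposite ends of the third principal component (-67.0 and 64.3, against -11.8 to 6.17 for the other libraries), and IL-25 replicate 1 had the lowest level in its group for Zfp36, Zfp36l1, Zfp36l2, Zc3h12a, Zc3h12d and Rc3h1. Where leaving out either of these libraries changes the call of a regulator, the value without it is given.

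**Figure D1:**
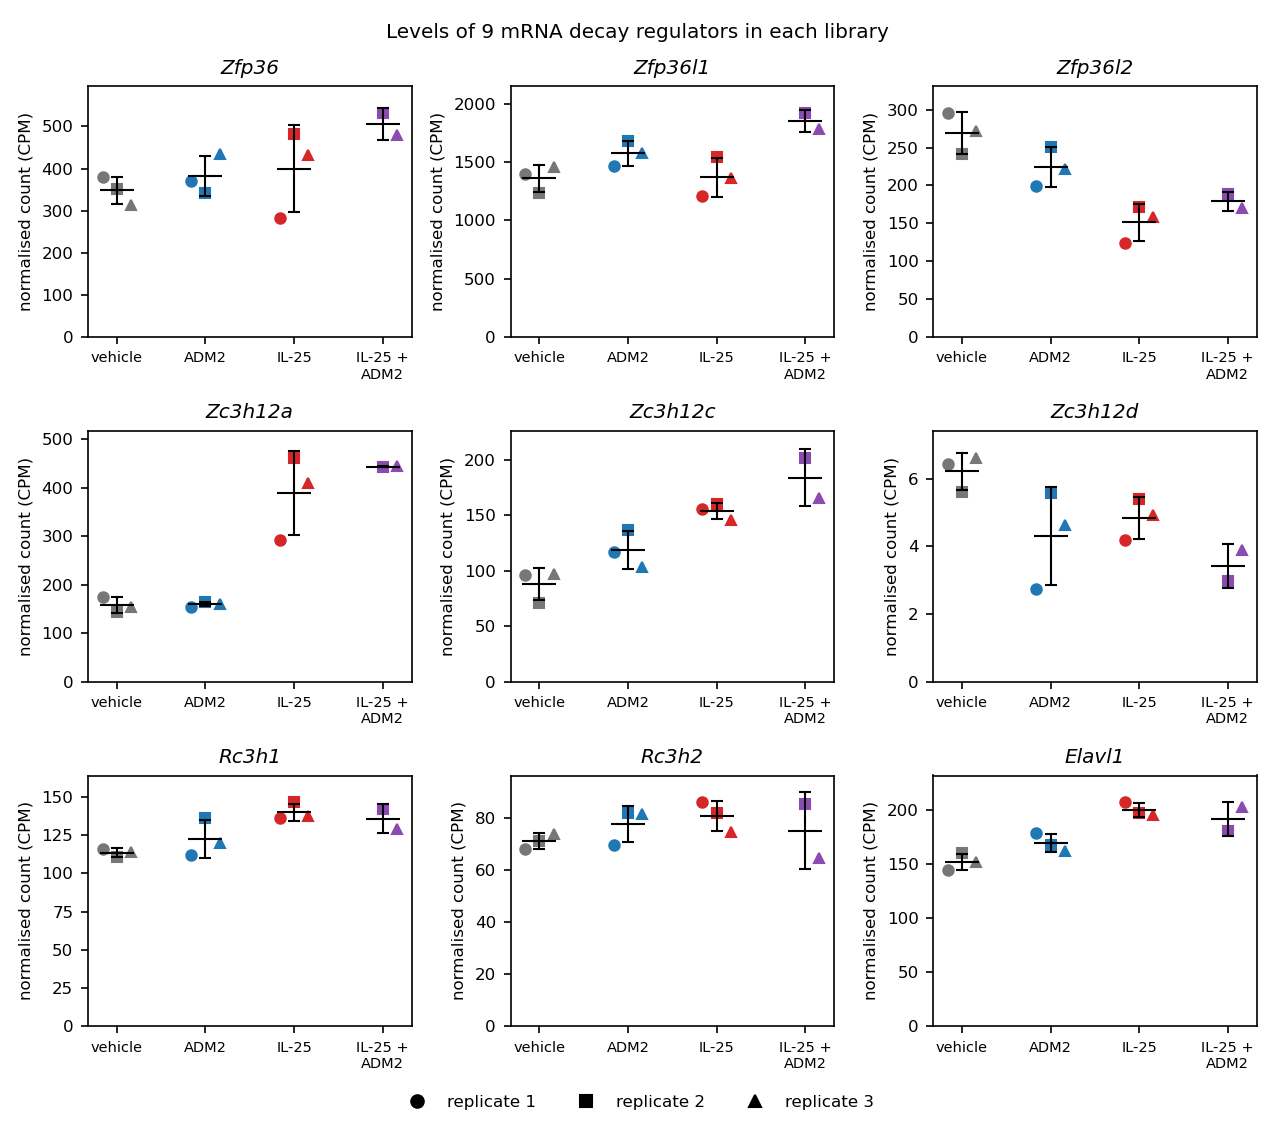
Normalised counts (CPM, y axis from 0) of the 9 regulators in each of the 11 libraries by group (x axis), with symbols for the replicate number and bars for the mean ± SD. Zc3h12a lies at 144 to 175 CPM in the vehicle libraries, 155 to 164 in the ADM2 libraries and 292 to 462 in the libraries with IL-25, and Zfp36l2 is lower in all libraries with IL-25 (124 to 188 CPM) than in vehicle (241 to 296 CPM).

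Per kilobase of exon, which allows genes to be set side by side, Zfp36l1 was by far the most abundant regulator in every group. In vehicle it had 456 ± 38.8 CPM per kb (SD, n = 3), followed by Zfp36 (100.3 ± 9.37), Zfp36l2 (76.3 ± 7.78), Zc3h12a (57.3 ± 5.70) and Elavl1 (26.2 ± 1.32). Zc3h12c (12.9 ± 2.14), Rc3h1 (10.3 ± 0.256), Rc3h2 (7.93 ± 0.334) and Zc3h12d (1.52 ± 0.133) made up the lower end. The ranges of neighbours in this order did not overlap in vehicle, except those of Zc3h12c and Rc3h1. With IL-25, Zc3h12a moved to the second place at 141 ± 31.5 CPM per kb, where its range overlapped that of Zfp36 (115 ± 29.9), and Zfp36l2 fell to the fourth at 42.8 ± 6.83, where its range overlapped that of Elavl1 (34.4 ± 1.10). With both agents the order was that of IL-25 alone, with Zc3h12a at 161 ± 0.469 (n = 2) and Zfp36 at 146 ± 10.7 not overlapping. With ADM2 alone the order was that of vehicle, but the ranges of Zfp36l2 and Zc3h12a overlapped and those of Zc3h12c and Rc3h1 did not. The exon length used for Zfp36, 3.47 kb over all its GENCODE transcripts, is longer than its whole RefSeq gene (chr7:28376784-28379228). A shorter length would raise Zfp36 per kilobase. The place of Zc3h12a above Zfp36 with IL-25 and with both agents therefore depends on the annotation and may not hold.

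The make-up of the tristetraprolin and regnase families differed between groups. Zfp36l1 gave 70.8% to 74.4% of the per-kilobase level of the tristetraprolin family in the vehicle libraries and 75.7% to 76.2% with both agents. Its share was 73.7% to 76.9% with ADM2 and 72.9% to 77.6% with IL-25, ranges that overlapped those of vehicle and of both agents. The share of Zfp36l2 was 12.1% ± 0.537 in vehicle, 9.02% ± 0.595 with ADM2, 6.93% ± 0.208 with IL-25 and 6.20% ± 0.0849 with both, and the ranges of these 4 groups did not overlap. Zc3h12a gave 80.0% ± 1.81 of the regnase family in vehicle, 75.9% ± 2.34 with ADM2, 85.2% ± 3.04 with IL-25 and 85.3% ± 1.65 with both. The ranges of vehicle and ADM2 overlapped. The summed level of the family was 71.7 ± 7.53 CPM per kb in vehicle and 165 ± 31.8 with IL-25. Rc3h1 gave 56.2% to 59.7% of the roquin family on average in the 4 groups, with overlapping ranges. These shares are descriptions, with no test, and those of the tristetraprolin family depend on the exon length taken for Zfp36.

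**Figure D2:**
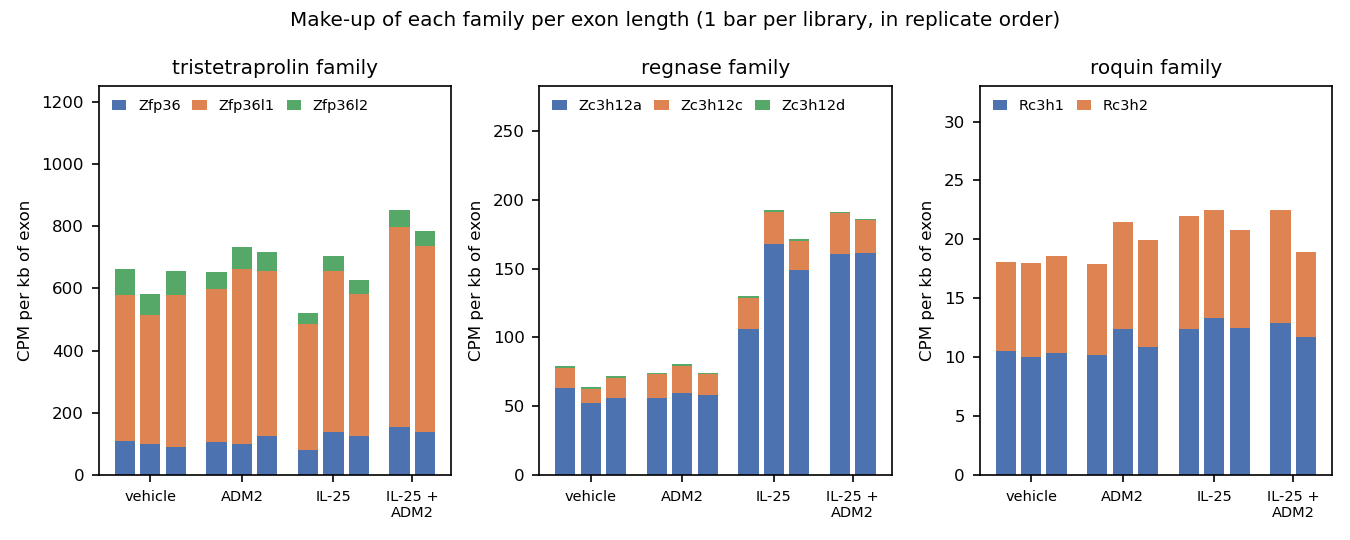
Summed level per exon length (CPM per kb, y axis from 0) of the tristetraprolin, regnase and roquin families, 1 stacked bar per library, grouped by treatment (x axis) and coloured by gene. The regnase bars are taller with IL-25, where their group mean is 165 against 71.7 CPM per kb in vehicle, and the top segment of the tristetraprolin bars, Zfp36l2, is thinner.

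With IL-25 alone against vehicle, 4 of 9 regulators rose and 1 fell in edgeR's quasi-likelihood test at a Benjamini-Hochberg adjusted p below 0.05. Over all genes tested 23.3% were called in this comparison, 13.0% as higher and 10.4% as lower. The median log2 fold change of the 9 was 0.20, against 0.00046 over all genes tested. Upper-quartile scaling turned the share of higher calls among all calls from 55.6% to 44.6% in this comparison, and the members called were then Zc3h12a, Zc3h12c and Elavl1 as higher and Zfp36l2 as lower. Without IL-25 replicate 1 there were 6 members called, and without IL-25 replicate 3 there were 4.

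Zc3h12a, encoding Regnase-1, had the largest rise. Its levels were 175, 144 and 154 CPM in the 3 vehicle libraries and 292, 462 and 410.2 CPM in the 3 IL-25 libraries. The groups did not overlap, and the lowest IL-25 library, replicate 1, was still well above every vehicle library. The level rose 2.46-fold (log2 fold change 1.30 ± 0.14 SE, edgeR adjusted p = 7.71e-06), and the log2 fold change was 1.16 to 1.47 in the 19 alternative settings, in all of which it was called. Beside ADM2 it rose as well, being at 442 and 444 CPM with both agents against 155, 164 and 160.4 with ADM2 (2.78-fold, log2 1.47 ± 0.15, edgeR adjusted p = 1.44e-05).

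Zc3h12c, encoding Regnase-3, a relative studied mainly in macrophages, rose as well. It was at 96.1, 71.1 and 96.9 CPM in vehicle and at 155, 161 and 146 CPM with IL-25, without overlap. This was a 1.75-fold rise (log2 0.81 ± 0.13, edgeR adjusted p = 4.64e-04), called in all 19 alternatives. Mir6244 lies within this gene, and reads of these genes cannot be told apart. Zc3h12d, encoding Regnase-4, was the rarest member, with 6.43, 5.60 and 6.63 CPM in vehicle and 4.19, 5.41 and 4.94 CPM with IL-25. Its difference of -0.36 ± 0.29 did not pass (edgeR adjusted p = 0.438), and counts of 86 to 235 reads per library limit its precision. It also overlaps Mir5104 and Gm24726.

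Elavl1 rose by less and with little spread. It was at 145, 159.9 and 151 CPM in vehicle and at 207, 197 and 195 CPM with IL-25, without overlap. The rise was 1.31-fold (log2 0.39 ± 0.09, edgeR adjusted p = 0.00437), and it was called in all 19 alternatives.

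Rc3h1, encoding Roquin-1, known for repressing Icos in T cells, passed the threshold narrowly, at 116, 110.4 and 114 CPM in vehicle against 136, 146 and 138 CPM with IL-25 (1.23-fold, log2 0.30 ± 0.09, edgeR adjusted p = 0.0303). The groups did not overlap, but the call was lost in 9 of 19 alternatives, among them leaving out any 1 of the vehicle libraries (edgeR adjusted p = 0.107, 0.115 and 0.123) or IL-25 replicate 2 or 3 (0.0901 and 0.063). Its paralog Rc3h2, encoding Roquin-2, was at 68.1, 71.4 and 74.1 CPM in vehicle and at 86.1, 82.2 and 74.8 CPM with IL-25, a difference of 0.19 ± 0.12 that did not pass (edgeR adjusted p = 0.294). Rc3h2 overlaps Snord90.

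In the tristetraprolin family Zfp36l2 fell with IL-25, and the other members did not pass. Zfp36l2, known with Zfp36l1 for enforcing quiescence in developing lymphocytes, was at 296, 241 and 272 CPM in vehicle and at 124, 171 and 158 CPM with IL-25, without overlap. It fell by 0.83 on the log2 scale (SE 0.13), to a level 1.78-fold lower than in vehicle, with an edgeR adjusted p = 2.21e-04 and a call in all 19 alternatives. Zfp36, best known for limiting TNF, was at 379, 351 and 314 CPM in vehicle and at 283, 483 and 432 CPM with IL-25. Replicate 1 lay below and the other IL-25 libraries above all vehicle libraries, and the difference of 0.20 ± 0.16 did not pass (edgeR adjusted p = 0.426). Without IL-25 replicate 1 it was 0.39 and passed (edgeR adjusted p = 0.0253), so that 1 library decides the call. Zfp36l1 was at 1400, 1233 and 1457 CPM in vehicle and at 1209, 1545 and 1364 CPM with IL-25, with overlapping ranges and a difference of 0.01 ± 0.10 (edgeR adjusted p = 0.962).

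**Figure D3:**
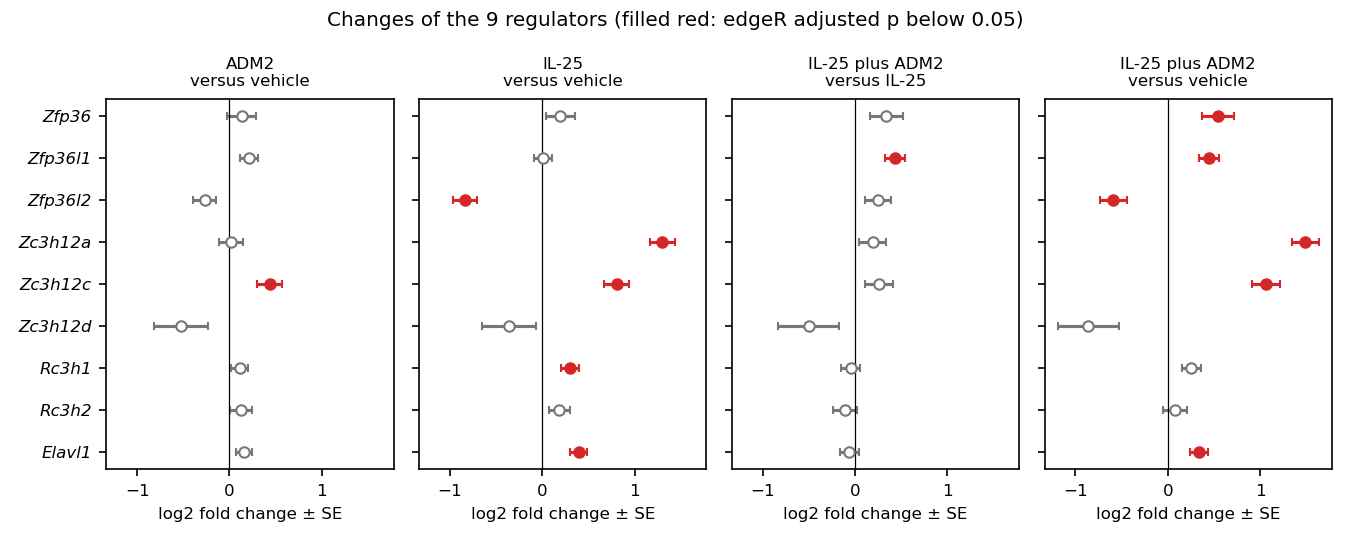
Log2 fold change ± SE (x axis, edgeR) of the 9 regulators (y axis) in 4 comparisons, filled red where the adjusted p is below 0.05. With IL-25, Zc3h12a (1.30), Zc3h12c (0.81), Elavl1 (0.39) and Rc3h1 (0.30) lie right of 0 and Zfp36l2 (-0.83) left of it, while with ADM2 alone Zc3h12c (0.44) is the called gene.

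With ADM2 alone against vehicle 1 of 9, Zc3h12c, rose and 0 fell, where 14.8% of all genes tested were called (7.39% higher and 7.43% lower), so the share of the 9 was near that of all genes. At an unadjusted p below 0.05, Zfp36l1 passed as well, as did 3995 of the 15028 genes tested. The median log2 fold change of the 9 was 0.13, against -0.0058 over all genes tested. Zc3h12c was at 117, 137 and 103 CPM with ADM2 against 96.1, 71.1 and 96.9 in vehicle, without overlap (1.35-fold, log2 0.44 ± 0.13, edgeR adjusted p = 0.0406). This call was lost in 8 of 19 alternatives, and leaving out vehicle replicate 2, the lowest library, gave an edgeR adjusted p = 0.204. Without IL-25 replicate 3, which enters through the shared estimate of the spread, it was 0.0529.

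Zc3h12a, the gene that IL-25 moved most, was at 155, 164 and 160.4 CPM with ADM2, within the vehicle range (log2 0.02 ± 0.13, edgeR adjusted p = 0.966). Zfp36l2 was at 199, 251 and 222 CPM, mostly below vehicle with ranges that overlapped, and its difference of -0.27 ± 0.13 did not pass (edgeR adjusted p = 0.191). Zfp36l1 was at 1467, 1686 and 1581 CPM, each above all vehicle libraries, with a difference of 0.21 ± 0.10 that did not pass (edgeR adjusted p = 0.177). Zc3h12d, at 2.73, 5.58 and 4.63 CPM, lay below all vehicle libraries and Elavl1, at 179, 168 and 162 CPM, above them, but their differences of -0.53 ± 0.29 and 0.16 ± 0.09 did not pass. Zfp36, at 370, 341 and 436 CPM, Rc3h1, at 112, 136 and 119 CPM, and Rc3h2, at 69.6, 82.1 and 81.7 CPM, overlapped vehicle.

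Set directly against each other, IL-25 and ADM2 left 3 members at different levels, where 31.2% of all genes were called. Zc3h12a was 2.43-fold higher with IL-25 (log2 1.28 ± 0.14, edgeR adjusted p = 3.09e-06). Zfp36l2 was 1.48-fold lower with IL-25 (log2 -0.57 ± 0.13, edgeR adjusted p = 0.00278), and the 2 groups did not overlap for either gene. Zc3h12c was 1.29-fold higher (log2 0.37 ± 0.13, edgeR adjusted p = 0.0475), a call that 10 of 19 alternatives lost, with an edgeR adjusted p = 0.0879, 0.116 and 0.0656 without IL-25 replicates 1, 2 and 3. Elavl1, at 0.24 ± 0.09, missed the threshold (edgeR adjusted p = 0.0550) and passed in 4 of 19 alternatives.

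Adding ADM2 to IL-25 raised 1 of the 9, Zfp36l1, and lowered 0, where 14.6% of all genes were called, 6.53% as higher and 8.10% as lower. Upper-quartile scaling turned the share of higher calls over all genes from 44.6% to 57.4% and left Zfp36l1 as the called member. Zfp36l1 was at 1925 and 1789 CPM with both agents against 1209, 1545 and 1364 with IL-25. The groups did not overlap, and the rise was 1.35-fold (log2 0.44 ± 0.11, edgeR adjusted p = 0.0123). It was called in 18 of 19 alternatives, IL-25 replicate 1 left out included, and lost when replicate 2 of the combined group was left out, which left 1 library there (edgeR adjusted p = 0.123).

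The remaining members did not pass in this comparison. Zfp36 was at 532 and 480 CPM with both agents, beside 283, 483 and 432 with IL-25, and differed by 0.34 ± 0.17 (edgeR adjusted p = 0.226). Zfp36l2 was at 188 and 170.2 CPM and differed by 0.24 ± 0.14 (edgeR adjusted p = 0.294). Zc3h12a, at 442 and 444 CPM, lay inside the IL-25 range, and Zc3h12c, at 202 and 166 CPM, lay above all IL-25 libraries with a difference of 0.26 ± 0.15 (edgeR adjusted p = 0.293). The 4 others were 2.97 and 3.89 CPM for Zc3h12d, 142 and 129 CPM for Rc3h1, 85.7 and 64.8 CPM for Rc3h2, and 180.3 and 203 CPM for Elavl1, with differences of -0.50 ± 0.33, -0.05 ± 0.11, -0.11 ± 0.13 and -0.06 ± 0.10.

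Whether ADM2 acted differently with and without IL-25 was tested as a difference of its effects. No member passed in edgeR's test, where 5 of all genes tested (0.0333%) were called, and none passed in the 18 alternatives, DESeq2 and limma voom included. At an unadjusted p below 0.05, Zfp36l2 alone of the 9 passed: its ADM2 effect was 0.51 ± 0.19 higher with IL-25 on the log2 scale, with an edgeR adjusted p = 0.644. Over all genes, 1028 passed that unadjusted threshold. The comparisons with vehicle and with IL-25 share libraries with this one.

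With both agents, 6 of 9 regulators stood apart from vehicle, 5 higher and 1 lower, where 20.2% of all genes were called, 10.6% as higher and 9.64% as lower. The median log2 fold change of the 9 was 0.33, against -0.02 over all genes tested. The rises were 2.81-fold for Zc3h12a (log2 1.49 ± 0.15, edgeR adjusted p = 4.52e-06), 2.09-fold for Zc3h12c (1.06 ± 0.15, edgeR adjusted p = 1.10e-04) and 1.36-fold for Zfp36l1 (0.45 ± 0.11, edgeR adjusted p = 0.00813). Zfp36 rose 1.45-fold (0.54 ± 0.17, edgeR adjusted p = 0.0395) and Elavl1 1.26-fold (0.33 ± 0.10, edgeR adjusted p = 0.0251). Zfp36l2 fell by 0.59 on the log2 scale (SE 0.14, edgeR adjusted p = 0.00876). In each of these 6 genes the 2 groups did not overlap.

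These calls differed in how they held. Those of Zc3h12a and Zc3h12c held in all 19 alternatives, and those of Zfp36l1 and Zfp36l2 in 18. Zfp36 was called in 12 and Elavl1 in 14. Without IL-25 plus ADM2 replicate 3 there were 3 members called, and Zfp36l2 then had an edgeR adjusted p = 0.0993. Without replicate 2 of that group Zfp36l1 had an edgeR adjusted p = 0.0837. Against ADM2 alone, where 10.8% of all genes were called, both agents gave 2 called members, Zc3h12a and Zc3h12c. Zfp36, not called there (edgeR adjusted p = 0.176), passed without IL-25 replicate 1 (edgeR adjusted p = 0.0321). Zc3h12c was 1.55-fold higher there (log2 0.63 ± 0.15, edgeR adjusted p = 0.0122), and lost its call when replicate 2 of the combined group was left out (edgeR adjusted p = 0.149).

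The machinery that these regulators recruit was read from lists of the pathway. These lists and the others below were chosen with earlier results of these data known. Of 18 deadenylation genes, the CCR4-NOT and PAN complexes with their adaptors, 5 rose and 1 fell with ADM2, and 4 rose and 1 fell when ADM2 was added to IL-25. Over all genes tested 14.8% were called with ADM2 (7.39% higher and 7.43% lower) and 14.6% on adding it to IL-25 (6.53% higher and 8.10% lower). The median log2 fold change of the list was 0.01 and -0.05, beside -0.0058 and -0.01 over all genes tested. The 4 with the smallest p in both comparisons were the antiproliferative BTG and TOB adaptors, which tie deadenylases to RNA-binding proteins. Tob1 went from 19.0 ± 1.27 to 45.0 ± 2.20 CPM with ADM2 (2.36-fold, log2 1.24 ± 0.12, edgeR adjusted p = 6.06e-06). Btg2 rose 1.61-fold, Tob2 1.57-fold and Btg1 1.41-fold with ADM2, and beside IL-25 the rises were 2.46-fold for Tob1, 1.67-fold for Btg2, 1.67-fold for Tob2 and 1.34-fold for Btg1. All 8 of these calls held in all 19 alternatives.

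With IL-25, 3 of the 18 rose and 1 fell, a share near the 23.3% called over all genes. Btg1 went from 1273 ± 71.1 to 2368 ± 73.6 CPM (1.86-fold, edgeR adjusted p = 6.25e-07), the catalytic subunit Cnot7 rose 1.51-fold and the subunit Cnot2 1.43-fold, and the catalytic subunit Cnot6l was 1.46-fold lower. The 17 genes of decapping and 5′ decay held few calls: Lsm7, a subunit of the LSM ring, was 1.92-fold lower with ADM2 (log2 -0.94 ± 0.21, edgeR adjusted p = 0.00646), and 0 were called with IL-25 or when ADM2 was added to it. In those 2 comparisons Dcp1a (0.31 ± 0.11, edgeR adjusted p = 0.0545) and Lsm2 (-0.51 ± 0.17, edgeR adjusted p = 0.0546) came nearest. Over all genes tested 14.8% were called with ADM2, 23.3% with IL-25 and 14.6% on adding ADM2 to IL-25.

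The exosome and Ski complex, which degrade RNA from the 3′ end, held opposite calls with the agents. Of 15 genes, 0 rose and 6 fell with ADM2 (median log2 -0.37), while 5 rose and 1 fell with IL-25 (median 0.30). Adding ADM2 to IL-25 lowered 5 and raised 0 (median -0.40), and both agents together left 1 higher and 1 lower than vehicle (median 0.00197). Over all genes tested 7.39% rose and 7.43% fell with ADM2, and 13.0% rose and 10.4% fell with IL-25. On adding ADM2 to IL-25 6.53% rose and 8.10% fell, and with both against vehicle 10.6% rose and 9.64% fell. Dis3, the catalytic subunit, went from 69.2 ± 3.10 CPM in vehicle to 42.9 ± 2.97 with ADM2 (1.61-fold lower, edgeR adjusted p = 1.15e-04) and to 118 ± 4.68 with IL-25 (1.71-fold higher, edgeR adjusted p = 2.82e-05), and it was at 80.2 ± 3.18 (n = 2) with both. Ttc37, a scaffold of the Ski complex, fell by 0.71 on the log2 scale with ADM2 (SE 0.17) and by 1.13 when ADM2 was added to IL-25 (SE 0.19). Exosc5 was 1.66-fold lower with ADM2 and Exosc6 1.70-fold higher with IL-25. Without either of the IL-25 plus ADM2 libraries, the 5 calls on adding ADM2 went down to 2. They went down to 3 without replicate 3 of vehicle, ADM2 or IL-25, and with upper-quartile factors, which also called 1 as higher.

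Of 24 other RNA-binding regulators of stability, 5 rose and 5 fell with IL-25, where 23.3% of all genes were called, and 1 rose and 1 fell both with ADM2 and on adding ADM2 to IL-25, where 14.8% and 14.6% were. With IL-25 the rises went down to 3 with upper-quartile factors, no filter or any 1 vehicle library left out, and the falls to 2 without vehicle replicate 3 or IL-25 replicate 1. In all, the alternatives gave 3 to 6 rises and 2 to 6 falls. Nynrin, a gene with a regnase-like nuclease domain, went from 12.3 ± 3.15 to 2.30 ± 0.662 CPM with IL-25 (5.33-fold lower, log2 -2.41 ± 0.31, edgeR adjusted p = 4.27e-05). Ythdf2, a reader of m6A that promotes decay, rose 1.45-fold, and Ybx1 1.35-fold. Caprin1 rose 1.43-fold with IL-25, differed by -0.32 ± 0.09 with ADM2 (edgeR adjusted p = 0.0242, lost in 4 of 19 alternatives), and fell by 0.58 on the log2 scale when ADM2 was added to IL-25 (SE 0.10). Zcchc11, a terminal uridylyltransferase, rose 1.27-fold with ADM2 (edgeR adjusted p = 0.0491, lost in 9 of 19 alternatives) and by 0.45 ± 0.13 on the log2 scale when ADM2 was added to IL-25 (edgeR adjusted p = 0.0239, lost in 5 of 19).

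Genes that act on the regulators themselves were called in 9 of 13 cases with IL-25, 6 higher and 3 lower. Over all genes tested 23.3% were called in this comparison, 13.0% as higher and 10.4% as lower. Malt1, the protease that cleaves Regnase-1 and roquins, rose 1.71-fold (73.7 ± 6.61 to 126 ± 26.3 CPM, edgeR adjusted p = 9.07e-04). Mapk14 (p38α), whose pathway through MK2 phosphorylates tristetraprolin, was 2.35-fold lower (104 ± 3.95 to 44.1 ± 4.32 CPM, edgeR adjusted p = 3.57e-06). Ikbkb, the kinase that marks Regnase-1 for degradation, rose 1.52-fold.

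When ADM2 was added to IL-25, 1 of these 13 rose and 2 fell, but 4 rose and 1 fell with upper-quartile factors, 3 rose and 2 fell with DESeq2, and none were called without IL-25 plus ADM2 replicate 2. In the main test 14.6% of all genes were called in this comparison, 6.53% as higher and 8.10% as lower. Ikbkb fell by 0.47 on the log2 scale (SE 0.11, edgeR adjusted p = 0.0104) and Malt1 fell by 0.52 (SE 0.16, edgeR adjusted p = 0.0369). The call of Malt1 was lost in 9 of 19 alternatives, and that of Ikbkb without either IL-25 plus ADM2 library. With ADM2 alone, Ppp2ca, the catalytic subunit of the phosphatase PP2A, rose 1.31-fold and Irak1, a kinase of interleukin-1 and Toll-like receptor signalling, was 1.38-fold lower (edgeR adjusted p = 0.00581 and 0.0354). Ppp2ca was called in 17 of 19 alternatives and lost its call without vehicle replicate 1 or 3. The call of Irak1 was lost in 6 of 19 alternatives.

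Of 30 transcripts that these proteins are known to control, 19 rose and 0 fell with IL-25 (median log2 0.78), 18 rose and 3 fell with ADM2 (median 0.72), 16 rose and 2 fell when ADM2 was added to IL-25 (median 0.56), and 26 rose and 0 fell with both against vehicle (median 1.46). Over all genes tested 13.0% rose and 10.4% fell with IL-25, and 7.39% rose and 7.43% fell with ADM2. On adding ADM2 to IL-25 6.53% rose and 8.10% fell, and with both against vehicle 10.6% rose and 9.64% fell. The medians over all genes were -0.02 to 0.00046 in these 4 comparisons. The list was made with earlier results of these data known and holds cytokines of the cell type, and steady counts do not separate synthesis from decay. With IL-25, Il6 rose 16.5-fold (66.5 ± 9.42 to 1097 ± 48.0 CPM, edgeR adjusted p = 2.57e-11), Il13 10.1-fold, Il5 9.04-fold and Csf2 7.09-fold. With ADM2, Il5 rose 3.69-fold, Ptgs2 2.68-fold and Fos 1.95-fold, while Il13 was 1.95-fold lower. Beside IL-25, ADM2 raised Ptgs2 by 2.05 ± 0.10, Cxcl2 by 1.76 ± 0.15 and Il5 by 1.45 ± 0.10 on the log2 scale.

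**Figure D4:**
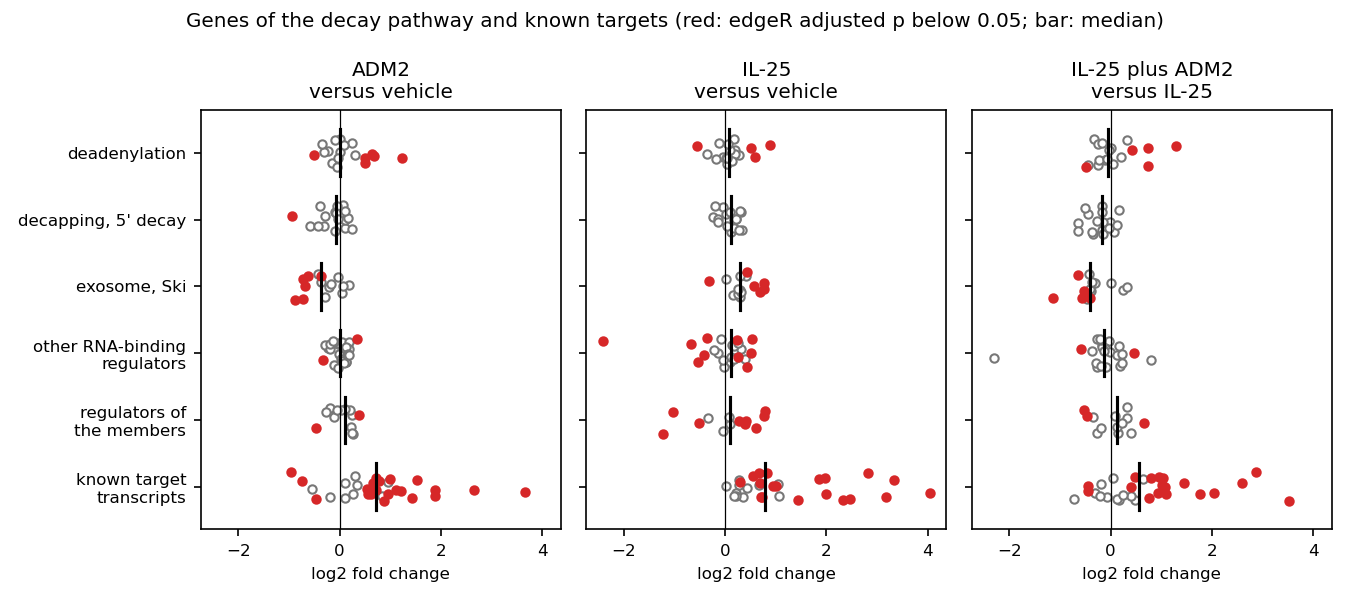
Log2 fold change (x axis, edgeR) of each gene of 5 pathway lists and of 30 known target transcripts (y axis) in 3 comparisons, red where the adjusted p is below 0.05, with a bar at the median of each list. The exosome and Ski list has its median at -0.37 with ADM2, 0.30 with IL-25 and -0.40 on adding ADM2 to IL-25, and the targets have theirs at 0.72, 0.78 and 0.56.

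The targets with more than 1 nonamer followed several patterns. Csf2, with 4 sites, was at 180.5, 235.5 and 211 CPM in vehicle, at 254, 255 and 245 with ADM2, at 1567, 1357 and 1523 with IL-25 and at 1387 and 1833 with both. Its libraries with IL-25 were several times higher than the others, and those with ADM2 alone lay a little above all vehicle libraries. Tnf, with 5 sites, was at 56.6, 54.5 and 46.0 CPM in vehicle, at 45.0, 43.3 and 49.3 with ADM2, at 86.5, 66.0 and 76.2 with IL-25 and at 67.3 and 77.4 with both. It too was higher in all libraries with IL-25, by far less than Csf2. Cxcl2, with 4 sites, was at 60.4 to 60.6 CPM in vehicle, at 186, 146 and 189 with ADM2, at 232, 319 and 362 with IL-25 and at 1003 and 1052 with both, so it was higher with either agent. Dusp1, with 2 sites, was at 62.6 to 75.2 CPM in vehicle and 63.4 to 90.6 with IL-25, but at 133 to 147 with ADM2 and 159.6 to 162 with both, so all libraries with ADM2 were above all others. Cxcl1, with 2 sites, was at 25.9 to 37.9 CPM in vehicle, 44.5 to 53.2 with ADM2, 42.9 to 56.8 with IL-25 and 98.6 to 102 with both, higher with either agent as Cxcl2 was.

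The targets were also counted by the nonamer. Of the 12 targets with the nonamer 8 rose and 0 fell with IL-25, and of the 18 without it 11 rose and 0 fell. With ADM2 these counts were 8 higher and 1 lower, and 10 higher and 2 lower. Over all 957 genes with the nonamer, 18.6% rose with IL-25 against 13.6% of the 12471 genes without it, and 12.4% against 7.57% rose with ADM2. The genes with the nonamer had a longer 3′ UTR (median 2104 bases against 876). Among genes with a 3′ UTR of 1000 to 3000 bases, 18.2% of 428 with the nonamer and 14.6% of 4316 without it rose with IL-25, and 13.1% and 9.34% with ADM2. These shares are descriptions, with no test.

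Genes whose pattern over the 11 libraries was most like that of a called member were found by Pearson's r of log2 CPM, over libraries that share their groups and their scaling. For Zc3h12a these were Pim1 (r = 0.986), a kinase gene, D16Ertd472e (0.982) and Nfkb2 (0.980), an NF-κB subunit. Nfkb2 had group means of 426 CPM in vehicle, 414 with ADM2, 950 with IL-25 and 935 with both. For Zc3h12c they were Osbpl8, Zfyve16 and Ell2 (0.975, 0.969 and 0.950), and for Zfp36l2 Kif21b, Wbp1l and Mast3 (0.966, 0.961 and 0.960). Kif21b had group means of 132 CPM in vehicle, 93.8 with ADM2, 64.1 with IL-25 and 66.6 with both.

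Zfp36 was most like Pnn (0.933), Actr1b (0.931) and Traf3ip2 (0.924), and with group means removed r was 0.984, 0.985 and 0.905. Within the IL-25 group, replicate 1 of Zfp36 (283 CPM) lay far below the other libraries (483 and 432 CPM). For the gene most like each of the other called members, r with group means removed was 0.803 (Zc3h12c) to 0.949 (Zfp36l1). Zfp36l1 was most like Gas2l3 (0.973), Lrp1 (0.944) and Whrn (0.941), Rc3h1 most like Gclc, Slc41a1 and Usp7 (0.959, 0.959 and 0.953), and Elavl1 most like Uqcrfs1, Zc3h15 and Tra2b (0.978, 0.973 and 0.971). Lrp1 had group means of 41.0 CPM in vehicle, 114 with ADM2, 50.9 with IL-25 and 186 with both, higher in both groups with ADM2. These values are descriptions, with no p.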

How the data were processed

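The authors deposited 1 table of raw counts keyed by Entrez Gene ID. The submitters' processing notes name featureCounts, limma and mm10, with no version; aligner, annotation release and use of strand: not given in the sources used here. Per the labels' protocols, PicoPure RNA went to Novogene for paired-end Illumina sequencing. The treatment field of the combined group names its cytokine differently from the titles, which were followed. Symbols came from a RefSeq GRCm38.p6 table (25275 IDs matched, 1904 not, holding 1.16% to 2.68% of counts), exon lengths and 3′ UTRs from GENCODE M21.

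The test was that of edgeR 4.0.16 under R 4.3.3 (filterByExpr minimum count 10, TMM factors, quasi-likelihood F test, all 11 libraries, 1 mean per group, adjusted p below 0.05 over 15028 genes). The SE is the absolute log2 fold change over the square root of F, so approximate. The fit was tested on simulated data. Alternatives were DESeq2 1.42.0, limma voom (limma 3.58.1), median-ratio and upper-quartile factors, no filter, a minimum count of 30, only the groups compared, a replicate block, and each library left out. No libraries of a group were copies (chi-square per degree of freedom 15.8 to 53.9).

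Named genes were all 9 members, up to 4 called genes of smallest p per list in the first 3 comparisons (or the 1 nearest; 1 gene is not reported here), and the 3 genes most like each called member. Target genes with several nonamers, the families' shares and the nonamer counts were added after values were seen. Members and lists were chosen with earlier results of these data known.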

Additional observations from a re-analysis of the deposited data

How the results depend on the processing

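Zc3h12a, Zc3h12c, Elavl1 and Zfp36l2 with IL-25 against vehicle, and Zc3h12a and Zc3h12c with both agents against vehicle were called in all 19 alternatives. The number of genes called in the difference of the ADM2 effect was 5, against 47 with DESeq2, 1 with limma voom, 47 with no filter, 3 with a minimum count of 30, 2 with the replicate block, and 0 to 6 with 1 library left out. With 1 library left out, the genes called were 1263 to 2261 on adding ADM2 to IL-25, 739 to 1926 for both against ADM2 and 1644 to 3437 for both against vehicle, the lowest each time without IL-25 plus ADM2 replicate 3, which leaves 1 library assumed to vary like the other groups. Members called in ADM2 versus vehicle were 0 with only the groups compared and 0 with the replicate block, and 0 to 1 with 1 library left out. With 1 library left out, the members called were 4 to 6 in IL-25 versus vehicle, 2 to 4 in IL-25 versus ADM2, 0 to 1 on adding ADM2 to IL-25, 1 to 3 for both against ADM2 and 3 to 6 for both against vehicle.

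Signs turned only for members that were not called. With upper-quartile factors the log2 fold change was -0.063 for Zfp36l1 in IL-25 versus vehicle, 0.025 for Rc3h1 and 0.011 for Elavl1 on adding ADM2 to IL-25, and -0.024 for Zfp36 and -0.025 for Rc3h2 in IL-25 versus ADM2; this scaling put the median of all genes at -0.11 in the last comparison, against -0.02. With only the groups compared Zfp36l1 was at -0.028 in IL-25 versus vehicle, and with the replicate block Zc3h12d was at -0.042 in the difference of the ADM2 effect. With 1 library left out, ranges that cross 0 were -0.0055 to 0.21 for Zfp36 and -0.080 to 0.059 for Zc3h12a in ADM2 versus vehicle, and -0.090 to 0.094 for Zfp36l1 in IL-25 versus vehicle. On adding ADM2 to IL-25 they were -0.12 to 0.024 for Rc3h1, -0.32 to 0.082 for Rc3h2 and -0.15 to 0.023 for Elavl1. Rc3h2 spanned -0.27 to 0.14 for both against ADM2, -0.14 to 0.27 for both against vehicle and -0.015 to 0.11 in IL-25 versus ADM2. Zfp36 spanned -0.095 to 0.26 and Zc3h12d -0.073 to 0.40 in IL-25 versus ADM2, and in the difference of the ADM2 effect Zc3h12c spanned -0.33 to 0.017 and Zc3h12d -0.21 to 0.26. The cause of these shifts was not tested.

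The block took the calls of Zc3h12c in ADM2 versus vehicle (edgeR adjusted p = 0.0743), Rc3h1 in IL-25 versus vehicle (0.0546), Zc3h12c in IL-25 versus ADM2 (0.0691) and, with both against vehicle, Zfp36 (0.109) and Elavl1 (0.0625). The labels give same-numbered samples nothing in common but the number. Deviations of same-numbered libraries from their group means correlated at -0.073 to 0.068. With means of 2 or 3 libraries, this cannot show whether the samples of a number share a mouse or a sort. Groups of 2 or 3 libraries limit what small differences can show, most for Zc3h12d.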
